A study of Mus musculus with 12 samples.

Results

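Overexpression of human progranulin (PGRN) was compared with vector control across all genes of the mouse transcriptome in NSC-34 cells, a hybrid line of mouse neuroblastoma and spinal cord motor neurons. The comparison used the 4 arrays labelled as hPGRN and the 4 labelled as control, 8 of the 12 arrays of the series. The other 4 arrays are of NSC-34/shPGRN cells, where mouse PGRN is depleted by a short hairpin RNA. They were left out of the contrast. They entered the normalization, the choice of probes, the estimate of the spread, an intensity cut for the chromosomes and a few levels given side by side. NSC-34/hPGRN cells were stably transfected with pcDNA3 carrying human PGRN, using Lipofectamine and G418 selection. NSC-34/shPGRN cells carried a pRS hairpin vector, introduced with Fugene and selected with puromycin. Empty pcDNA3 and empty pRS were both used to make control lines, and neither the labels nor the methods name the vector of the control arrays. All 3 lines were grown in the same way, for 24 h in 10% serum, 24 h in 5% serum and 24 h in 1% serum before lysis. The 4 arrays of a line are 4 flasks split from 1 stable line, so every p-value measures the spread between flasks, and a difference between lines cannot be told apart from a difference that arose when 1 line was made and selected. Neither source says whether a line was a clone or a pool of transfectants.

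Progranulin is a secreted glycoprotein of granulin repeats that supports neuronal survival and neurite growth. It reaches lysosomes by endocytosis through sortilin (Sort1) or together with prosaposin (Psap), and within lysosomes it is processed to granulins. Loss of 1 copy of the human gene causes frontotemporal dementia.

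Gene expression was read on Illumina BeadChips that cover the mouse genome. Intensities below are the deposited values, linear and background-subtracted, and a probe was taken as above background past a limit of 12.50 to 13.04, depending on the array. Between 19078 and 19305 probes were above background on the 8 arrays. That number was 19222 ± 61.4 (SD, n = 4) for NSC-34/hPGRN cells and 19175 ± 75.5 for control cells (exact two-sided permutation test, p = 0.371, the smallest possible p being 0.0286). Log2 values correlated at 0.993 to 0.996 between arrays of NSC-34/hPGRN cells, at 0.988 to 0.993 between control arrays and at 0.986 to 0.991 between the lines, across genes, which are not independent replicates. Of the 30 markers of neuroblastoma and neuron identity 21 were tested, and their summed intensity was 31903 to 35688 on the hPGRN arrays against 27462 to 29694 on the control arrays. Such a sum weighs the brightest markers most. At the threshold given below, 4 of the 21 were higher and 2 lower, against 3.78% and 3.27% of all genes. Syt1 and Isl1 were among the higher markers, and the lower ones were Stmn2 and Elavl4. Without the genes of chromosomes 4, 10, 13 and 17, which are described below, 1 of 18 of these markers was higher and 1 lower. Markers of macrophages and microglia were near background, with 6 of 18 tested and a sum of 78.9 to 146 against 59.2 to 106. Astrocyte and oligodendrocyte markers summed to 143 to 165 against 226 to 292, over 4 of 15 markers tested, and fibroblast markers to 1433 to 1717 against 1587 to 1827, over 7 of 18. Of the 4 astrocyte and oligodendrocyte markers only Slc1a2 passed, and it was lower. Schwann cell markers, 4 of 14 tested, summed to 1206 to 1440 against 987 to 1382. In bulk RNA, fewer cells of a kind and less RNA per cell cannot be told apart.

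Grn, the mouse gene for PGRN on chromosome 11, was read by 1 probe designed for the mouse transcript. Whether this probe also reads the human transgene was not tested. Grn read 922, 1273, 1043 and 956 in NSC-34/hPGRN cells and 896, 899, 811 and 942 in control cells. The 2 lines overlapped, and replicate 2 of NSC-34/hPGRN cells was the highest. The difference of 0.22 on the log2 scale (SE 0.11) did not pass the threshold in limma, with an adjusted p of 0.248. The Grn values therefore give no check of the labels on these arrays, and the study tested expression of the introduced gene by RT-PCR and Western blot.

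Of 11107 genes tested, 783 differed between NSC-34/hPGRN and control cells at a Benjamini-Hochberg adjusted p under 0.05 in limma, which is 7.05% of the genes tested. The number higher in NSC-34/hPGRN cells was 420 (3.78%) and the number lower was 363 (3.27%). Most differences were small. The median size among the changed genes was 0.41 on the log2 scale, 115 genes differed at least 1.5-fold (65 higher, 50 lower) and 22 at least 2-fold (15 higher, 7 lower). Over all genes tested the median log2 fold change was -0.0021, with quartiles of -0.11 and 0.11. For 711 of the 783 genes, the 4 hPGRN arrays and the 4 control arrays did not overlap, as was the case for 1449 of all 11107 genes (13%). With each of the 8 arrays left out in turn, 90 of 146 changed genes named here kept their call every time. These were 67 of the 69 with a log2 fold change of at least 0.5 in size, the exceptions being Ddc and Tapbp, and 23 of the 77 with a smaller one. The log2 values carry an offset that puts a deposited intensity of 0 at 72.2, so folds of dim genes are smaller than the ratio of their intensities.

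**Figure D1:**
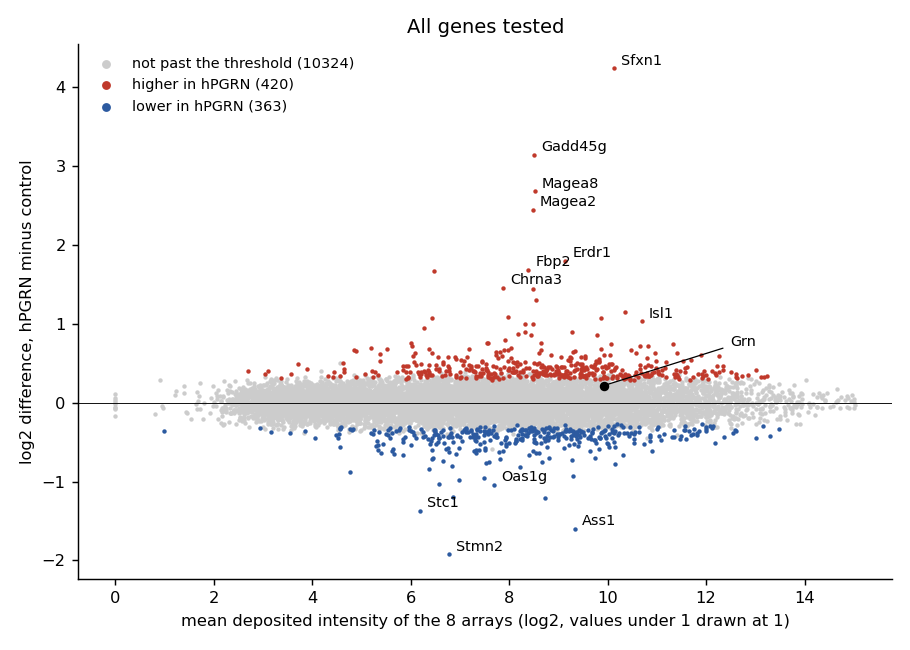
Each point is 1 of 11107 genes. The horizontal axis is the mean deposited intensity of the 8 arrays on a log2 scale, with values under 1 drawn at 1, and the vertical axis is the limma log2 difference, NSC-34/hPGRN minus control, with the 420 higher genes in red, the 363 lower genes in blue and Grn as a black point. Sfxn1 and Gadd45g stand farthest above the other genes and Stmn2 and Ass1 farthest below.

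The largest increase was in Sfxn1, which encodes a mitochondrial serine carrier. Its probe read 2371, 1978, 2229 and 2150 in NSC-34/hPGRN cells against 44.2, 60.1, 43.0 and 41.9 in control cells. Its second probe was also higher (log2 fold change 3.85 against 4.24, SE 0.09 each, limma adjusted p = 2.51e-19 for the brighter probe). NSC-34/shPGRN cells read 1675 ± 146, so that the control line was the low one of the 3. Gadd45g, a stress sensor induced by growth arrest and DNA damage, read 669, 743, 722 and 717 against 13.98, 23.8, 13.89 and 15.5 (log2 fold change 3.14, SE 0.10, limma adjusted p = 6.76e-16), and 476 ± 93.3 in NSC-34/shPGRN cells. Gadd45g and Sfxn1 are near neighbours on chromosome 13, with only 2 tested genes between them in the RefSeq order. Neither of those neighbours passed the threshold: Auh, dim in both lines, differed by 0.14 (adjusted p = 0.473) and Sptlc1 by 0.04 (adjusted p = 0.890).

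Genes of germ line and sensory families, and Erdr1, followed. Magea8 and Magea2, X-linked cancer testis antigens, read 685 ± 72.6 and 653 ± 26.3 in NSC-34/hPGRN cells against 46.5 ± 16.9 and 61.3 ± 10.4 in control cells (limma log2 fold changes 2.68 and 2.45). Vmn1r123, a vomeronasal receptor gene, read 156 to 202 on the hPGRN arrays and was above background on 1 of 4 control arrays (log2 fold change 1.67, SE 0.11, adjusted p = 6.23e-10). Erdr1 read 914 ± 69.0 against 212 ± 35.3. These genes belong to families or repeats of near-identical copies, so their probes may read several members.

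Among the other genes of the 15 largest increases were several with known roles in neurons or hormone secretion. Chrna3, an alpha subunit of ganglionic nicotinic acetylcholine receptors, read 366, 359, 381 and 401 in NSC-34/hPGRN cells and 77.2, 115, 88.7 and 86.7 in control cells. The 2 lines were far apart on every array (log2 fold change 1.46, SE 0.09, limma adjusted p = 1.18e-10). It was the only 1 of 9 tested cholinergic genes to pass. Isl1, a LIM homeodomain factor that specifies motor neurons, rose from 1063 ± 74.9 to 2242 ± 128 (log2 fold change 1.03, limma adjusted p = 2.35e-07), and Sct, the gene for the hormone secretin, rose from 788 ± 51.8 to 1839 ± 63.0. Fbp2, a fructose bisphosphatase of muscle, rose from 121 ± 28.6 to 545 ± 74.4, and Nckap1l, a subunit of the actin-regulating WAVE complex of blood cells, from 30.4 ± 7.21 to 143 ± 13.2. Snapc4, a subunit of the complex that starts small nuclear RNA transcription, Sapcd1 on chromosome 17 and Smap2, a GTPase-activating protein for Arf, rose with log2 fold changes of 1.30, 1.44 and 1.07. Hmcn1, which encodes the matrix protein hemicentin, rose from 135 ± 28.8 to 365 ± 30.7, and in NSC-34/shPGRN cells its probe was above background on 0 of 4 arrays.

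**Figure D2:**
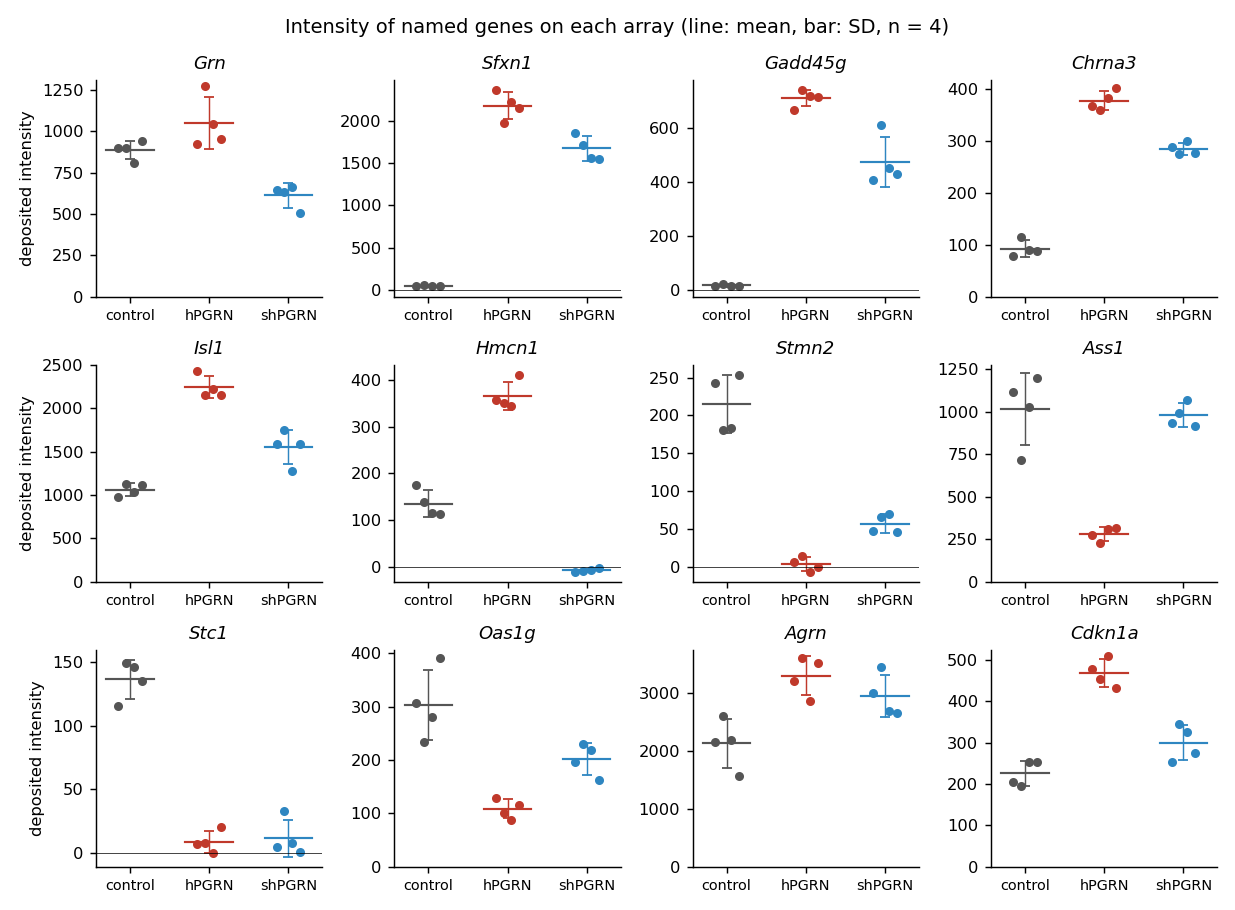
Deposited intensity (linear, vertical axis) of 12 named genes on each array, with 4 points per line, the mean as a horizontal line and the SD as a bar. The 4 hPGRN points of Sfxn1 lie between 1978 and 2371 and the control points between 41.9 and 60.1, while the points of Grn overlap.

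Stmn2 had the largest decrease. It encodes a neuronal microtubule regulator enriched in growth cones. Its probe read 6.11, 14.6, -6.49 and -0.488 in NSC-34/hPGRN cells against 243, 180, 184 and 254 in control cells, and was above background on 1 of 4 hPGRN arrays. The log2 fold change was -1.92 (SE 0.11, limma adjusted p = 3.47e-11). NSC-34/shPGRN cells read 57.2 ± 12.4, between the other lines. The paper lists Stmn2 among the genes most reduced in NSC-34/shPGRN against NSC-34/hPGRN cells, the opposite order to these values. The reason was not tested. Where the deposited values were floored at the lowest positive value with no background correction, Stmn2, Stc1 and Vmn1r123 no longer passed (adjusted p = 0.0764, 0.227 and 0.0835).

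Ass1, the argininosuccinate synthase of the urea cycle and arginine recycling, read 272, 227, 308 and 318 in NSC-34/hPGRN cells and 1113, 713, 1025 and 1199 in control cells. All hPGRN arrays were below all control arrays (log2 fold change -1.60, SE 0.12, limma adjusted p = 8.4e-09). The level in NSC-34/shPGRN cells was 978 ± 70.02. Asl, the next enzyme of the cycle, differed in the other direction (1186 ± 62.9 against 862 ± 180, log2 fold change 0.45, adjusted p = 0.0167). Stc1, the glycoprotein hormone stanniocalcin, read 6.93, 7.86, -0.0896 and 20.6 against 115, 149, 146 and 135 (log2 fold change -1.37, SE 0.11, adjusted p = 1.82e-08), and 11.4 ± 14.6 in NSC-34/shPGRN cells.

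The remaining large decreases were of mixed function. ND5, a complex I subunit encoded in the mitochondrial genome, read 236 ± 89.7 against 618 ± 54.7. Olfml1 fell from 190 ± 18.6 to 41.9 ± 5.50, Phlda2, an imprinted gene, from 191 ± 14.1 to 60.6 ± 5.83 and Ttr, a carrier of thyroid hormone and retinol, from 259 ± 25.4 to 100.5 ± 27.4. F2rl2, a protease-activated receptor, fell from 1454 ± 166 to 817 ± 43.9 and Rab32, a small GTPase of organelle traffic, from 252 ± 23.2 to 118 ± 16.7. Dnali1, an axonemal dynein light intermediate chain, was not well above background on any hPGRN array and was at least 1.52-fold lower than in control cells, a bound set against the lowest signal above background on each hPGRN array (limma adjusted p = 2.82e-05). Samd9l, which interferon induces, fell from 153 ± 17.1 to 38.0 ± 6.99, and the unnamed transcript 2900060B14Rik fell by 0.81 on the log2 scale. Tshz1 and Zadh2, neighbouring genes of a zinc finger factor and an oxidoreductase, fell by 0.82 and 0.92 on the log2 scale.

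A group of interferon response genes was lower in NSC-34/hPGRN cells, 10 of 36 tested. Interferons induce these genes through transcription factors that bind a short promoter element, the interferon-stimulated response element. Of 55 genes on the list 36 could be tested, 10 fell and 0 rose, against a background of 3.27% lower genes, and the median log2 fold change of the list was -0.18 against -0.0021 over all genes. The promoters of the 4 members with the largest decreases for which the table holds the element are shown here from 250 bases before to 50 after the RefSeq transcription start (mouse build GRCm38.p6, minus strand in every case). They are Oas1g at chr5:120887564-120887863, Trim21 at chr7:102565433-102565732, Bst2 at chr8:71537423-71537722 and Rsad2 at chr12:26456403-26456702, read 5′ to 3′ in the direction of transcription, with each match to the element's core in capitals.
Oas1g: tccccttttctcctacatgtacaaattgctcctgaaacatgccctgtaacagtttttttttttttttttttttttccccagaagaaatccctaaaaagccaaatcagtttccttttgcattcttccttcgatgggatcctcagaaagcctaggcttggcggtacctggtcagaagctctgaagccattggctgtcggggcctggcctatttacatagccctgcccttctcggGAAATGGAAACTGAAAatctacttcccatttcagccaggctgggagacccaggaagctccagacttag
Trim21: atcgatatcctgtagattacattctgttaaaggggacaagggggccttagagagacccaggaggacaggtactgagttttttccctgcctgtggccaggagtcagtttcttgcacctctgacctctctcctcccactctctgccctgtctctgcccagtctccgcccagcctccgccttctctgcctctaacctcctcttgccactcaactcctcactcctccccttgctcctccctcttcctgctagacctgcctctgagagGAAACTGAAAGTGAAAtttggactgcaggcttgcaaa
Bst2: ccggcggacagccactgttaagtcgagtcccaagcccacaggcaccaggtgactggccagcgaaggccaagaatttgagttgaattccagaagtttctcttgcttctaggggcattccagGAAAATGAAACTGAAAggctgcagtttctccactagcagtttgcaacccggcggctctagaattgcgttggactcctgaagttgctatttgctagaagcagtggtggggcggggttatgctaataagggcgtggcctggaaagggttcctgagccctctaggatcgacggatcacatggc
Rsad2: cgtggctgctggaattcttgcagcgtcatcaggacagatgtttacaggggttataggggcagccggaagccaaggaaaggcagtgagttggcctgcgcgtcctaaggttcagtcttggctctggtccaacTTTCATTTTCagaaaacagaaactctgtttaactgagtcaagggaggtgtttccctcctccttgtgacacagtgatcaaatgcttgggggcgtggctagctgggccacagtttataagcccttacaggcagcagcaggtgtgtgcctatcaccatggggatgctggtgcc
The core searched was GAAANNGAAA, where N is any base, on both strands, on which it reads TTTCNNTTTC, and 2 overlapping matches were counted in Oas1g, Trim21 and Bst2. It was present in 3.44% of all 32851 mouse promoters of this length. For the list, a gene was counted where any of its promoters held the core, so its shares are of genes and not of promoters. Of the 8 lower members with a promoter in the table, 6 held it, and so did 11 of 22 members that did not pass. A match describes the sequence and not binding.

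Oas1g, an oligoadenylate synthetase that detects double-stranded RNA, read 130, 101, 88.1 and 115 in NSC-34/hPGRN cells and 308, 234, 281 and 391 in control cells. Its arrays did not overlap, and both of its probes fell (log2 fold changes -1.04 and -0.92, limma adjusted p = 3.62e-06 for the brighter probe). Usp18, the protease that removes Isg15 from proteins and dampens interferon signaling, read 25.2, 32.1, 10.03 and 28.4 against 87.1, 71.2, 84.4 and 68.7 (log2 fold change -0.65, adjusted p = 0.000136). Trim21, a cytosolic antibody receptor, fell from 209 ± 20.2 to 114 ± 24.3 and Bst2, the membrane tether of budding virus, from 143 ± 46.6 to 68.5 ± 15.8. Rsad2, the antiviral enzyme viperin, was above background on all 4 control arrays and on 1 of 4 hPGRN arrays. Irf9, a DNA-binding factor of this response, fell from 89.7 ± 20.7 to 38.9 ± 13.7 (log2 fold change -0.54, adjusted p = 0.00874).

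Ifi27 was the brightest of the lower interferon genes, at 1200, 1560, 1329 and 1475 against 2108, 1841, 2018 and 2169. Its 2 probes differed alike, by -0.53 and -0.54 on the log2 scale. The guanylate-binding protein gene Gbp3, the immunity-related GTPase gene Igtp and the oligoadenylate synthetase-like gene Oasl2 were lower by 0.37 to 0.40 on the log2 scale, and the arrays of Igtp and Oasl2 overlapped. Isg15, the ubiquitin-like modifier, read 19.5 to 33.8 against 45.0 to 51.3 and did not pass (adjusted p = 0.0985), and Stat2 did not differ past the threshold (log2 fold change 0.03, SE 0.11, adjusted p = 0.931). Irgm2, a related GTPase that is not on the list and was chosen after its values were seen, fell from 145 ± 44.1 to 57.5 ± 15.7. In NSC-34/shPGRN cells the levels of Usp18, Bst2, Rsad2, Irf9 and Ifi27 were 75.4, 169, 50.1, 109 and 2464, and those of Oas1g and Trim21 were 202 and 125. The macrophage markers named above stayed near background in both lines. With the floor in place of the background correction Oas1g, Usp18, Trim21, Bst2, Irf9 and Ifi27 passed and the other 4 did not.

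Of 21 tested genes of antigen presentation by MHC class I 2 were higher and 1 lower, against 3.78% and 3.27% of all genes. Tapbp (0.52), which bridges the peptide transporter to MHC class I, and the immunoproteasome subunit Psmb8 (0.33) were higher, and another immunoproteasome subunit, Psmb10 (-0.44), was lower on the log2 scale. Tapbp and Psmb8 lie on chromosome 17, where genes were higher in a long run described with the chromosomes, and Psmb10 on chromosome 8. Neither Tapbp nor Psmb8 passed without hPGRN replicate 1, 2 or 3 or control replicate 1 or 2, nor with the floor, with 16 added in place of the background correction, or with its offset at 16.

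**Figure D3:**
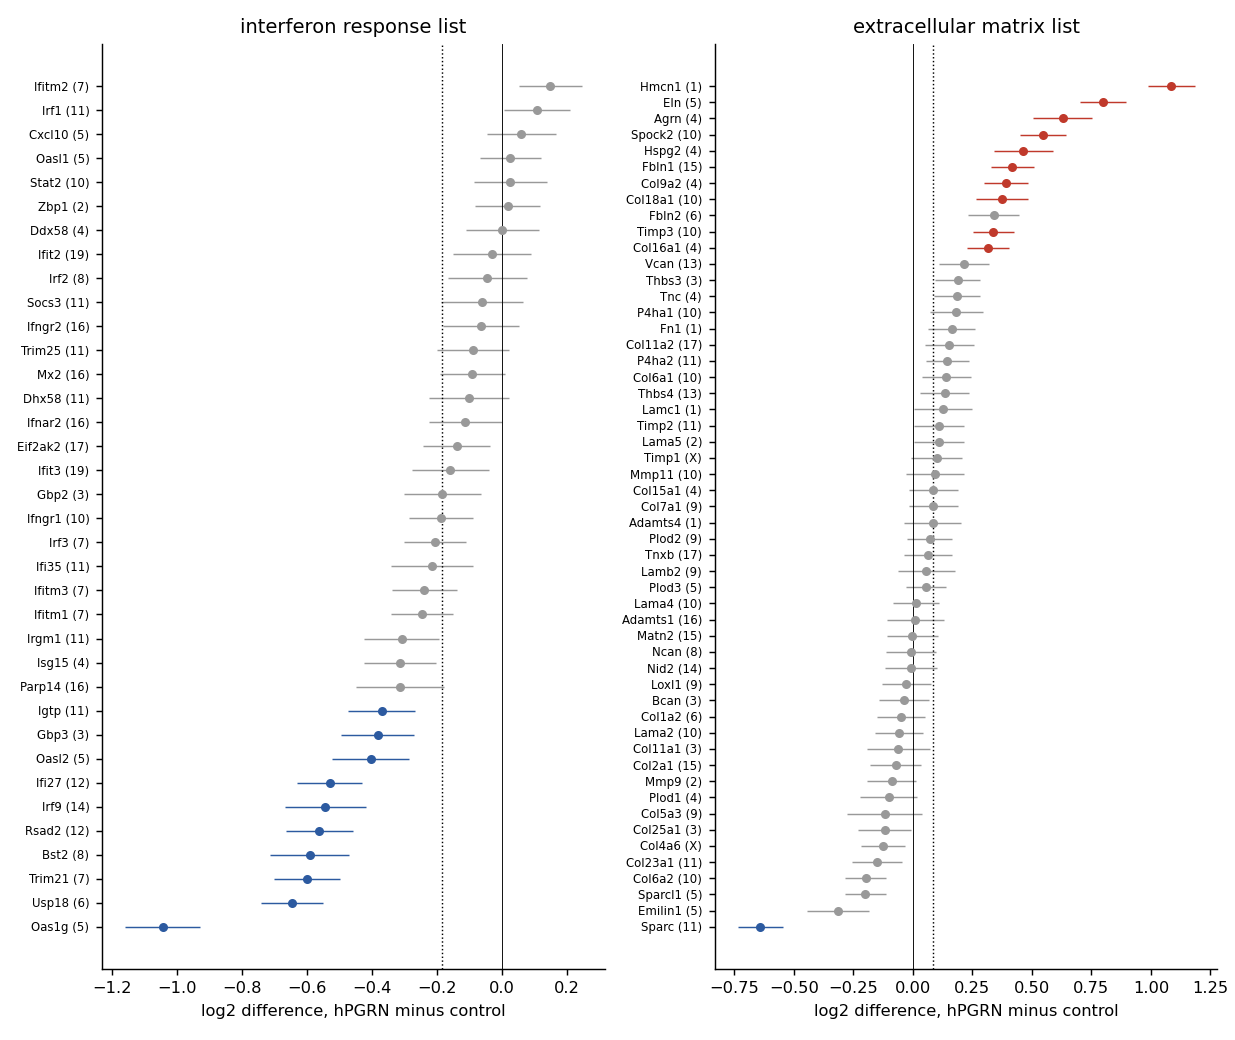
Limma log2 difference, NSC-34/hPGRN minus control, of the 36 tested interferon response genes and the 53 tested extracellular matrix genes, with the SE as a bar, the chromosome in brackets and the median of the list as a dotted line. Blue points are lower genes, red points higher genes and grey points did not pass. The interferon median lies at -0.18, and the matrix median at 0.09.

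Genes of the extracellular matrix were more often higher. Of 53 tested, 10 rose and 1 fell, against 3.78% and 3.27% of all genes, with a list median of 0.09. Hmcn1 had the largest difference (log2 fold change 1.08). Eln, the precursor of elastic fibres, read 297, 366, 317 and 330 in NSC-34/hPGRN cells against 140, 173, 142 and 175 in control cells (log2 fold change 0.80, SE 0.10, limma adjusted p = 1.1e-05). Agrn, the proteoglycan that clusters acetylcholine receptors at the neuromuscular junction, rose from 2131 ± 423 to 3300 ± 338 with no overlap. The heparan sulfate proteoglycans Spock2 (0.55) and Hspg2 (0.46), the collagens Col9a2 (0.39), Col18a1 (0.37) and Col16a1 (0.31), the inhibitor of matrix metalloproteinases Timp3 (0.34) and the elastic fibre protein Fbln1 (0.42) had smaller log2 increases. Sparc, a collagen-binding matricellular protein, fell from 211 ± 32.5 to 109 ± 12.4. Fbln1 and Col18a1 passed on their brightest probe, and none of the 4 other Fbln1 probes and 2 other Col18a1 probes did. Agrn, Hspg2, Col9a2 and Col16a1 lie on chromosome 4 and Spock2, Col18a1 and Timp3 on chromosome 10, and without the genes of chromosomes 4, 10, 13 and 17 the extracellular matrix list held 3 higher and 1 lower of 33 genes. Without replicate 4 of NSC-34/hPGRN cells 6 matrix genes were higher.

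Of 36 tested transcription factors of motor and autonomic neurons 3 were higher and 5 lower, against 3.78% and 3.27% of all genes. With 1 array left out these counts were 1 to 3 (1 without hPGRN replicate 4 or control replicate 1 or 4) and 2 to 4 (2 without hPGRN replicate 3 or 4 or control replicate 1, 2 or 3). Isl1 rose. Gata3 (0.46) and Insm1 (0.35), factors of sympathetic and neuroendocrine precursors, were higher, and the Gata3 arrays overlapped. Tshz1, Hoxd10 (-0.47), a Hox factor of lumbar motor neurons, Tbx3 (-0.34), Neurog2 (-0.32) and Sox11 (-0.30) were lower. Neurog2 was at most 24.9 on any array and its call rests on values close to background.

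In the synaptic vesicle and SNARE list, 5 of 44 genes rose and 3 fell, against 3.78% and 3.27% of all genes, and 3 to 5 rose and 2 to 4 fell with 1 array left out. Syt1, the calcium sensor of fast release, read 4463, 5186, 3959 and 4740 in NSC-34/hPGRN cells against 3438, 3055, 2991 and 2539 in control cells. The lines did not overlap (log2 fold change 0.60, SE 0.11, limma adjusted p = 0.00121), and Syt1 lies on chromosome 10. Syt7 (0.56), another synaptotagmin, and the vesicle phosphoproteins Syn2 (0.53) and Syn3 (0.40) were higher, as was Vamp3 (0.34). The endophilin gene Sh3gl2 (-0.41), the vesicle SNARE Vamp1 (-0.40) and the SNARE recycling factor Napb (-0.34) were lower. None of 22 tested postsynaptic genes passed. Of 24 genes of neurotransmitter synthesis and transport 2 rose and 3 fell, among them Ddc, the decarboxylase that makes dopamine and serotonin (315 ± 35.8 against 483 ± 79.4), and Slc1a2, a glutamate transporter (53.4 ± 3.16 against 119 ± 23.1), which is also 1 of the 4 tested astrocyte and oligodendrocyte markers.

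Of 50 genes of the neuronal cytoskeleton 4 were lower and 2 higher, against 3.27% and 3.78% of all genes, and none was higher without hPGRN replicate 2 or 4 or control replicate 1 or 3. Beside Stmn2, Rufy3, which acts in axon growth, fell from 527 ± 22.4 to 285 ± 26.4, the actin-binding profilin Pfn1 from 2193 ± 369 to 1538 ± 74.6 and the tubulin Tubb2b from 10080 ± 451 to 8190 ± 294. Dpysl3 (0.32) and the axon initial segment anchor Ank3 (0.30) were higher. The neuronal RNA-binding protein gene Elavl4 fell from 233 ± 34.9 to 133 ± 14.1. Among peptides, Scg2 (-0.42) was lower and Cartpt (0.39) higher, and among channel genes the sodium channel beta subunit Scn2b (-0.71) was lower and the potassium channel beta subunit Kcnab2 (0.62) higher, 1 of 23 channel genes in each direction. Pmp22, a myelin protein gene, rose from 417 ± 90.2 to 828 ± 88.8, and of the other tested Schwann cell markers none passed.

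Cell cycle inhibition and early response genes moved gene by gene, and their counts are read against 3.78% higher and 3.27% lower of all genes. Cdkn1a, the p53-induced inhibitor of cyclin-dependent kinases on chromosome 17, read 479, 455, 509 and 432 in NSC-34/hPGRN cells against 206, 195, 252 and 253 in control cells. The lines did not overlap (log2 fold change 0.86, SE 0.10, limma adjusted p = 6.68e-06). With Gadd45g it was 1 of 2 higher p53 and arrest genes of 29, and Phlda3 (-0.42) was lower. Of 52 DNA replication genes 4 were lower and 0 higher, with a list median of -0.05. The lower genes were Rrm2 (-0.57), the small subunit of ribonucleotide reductase, the helicase subunits Mcm6 (-0.42) and Gins2 (-0.39) and the origin factor Orc6 (-0.31). The count of lower replication genes was 2 with the floor or with the offset at 16 and 1 with 16 added. With 1 array left out it was 2 to 4. None of 45 mitosis genes passed. Of 37 ERK-responsive genes, Phlda1 (0.61), Dusp1 (0.49), Klf6 (0.43) and Errfi1 (0.33) were higher, and Egr1 (-0.44), Trib1 (-0.44) and Jun (-0.34) were lower. The 4 higher genes of this list lie on chromosomes 10, 17, 13 and 4, and without the genes of these chromosomes the ERK list held 0 higher and 2 lower of 28.

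Genes of the lysosome, where PGRN is processed, changed at about the rate of all genes, 7.05%. Of 37 lysosomal enzymes and activators 2 were higher and 1 was lower (8.11%), and of 34 lysosomal membrane and proton pump genes 2 were higher (5.88%). Psap, which carries PGRN to lysosomes, read 8932, 9968, 9386 and 9129 in NSC-34/hPGRN cells against 7034, 6059, 6447 and 8759 in control cells, with control replicate 4 close to the lowest hPGRN array (log2 fold change 0.41, limma adjusted p = 0.0149). Psap did not pass without hPGRN replicate 2 or control replicate 2 or 3, with adjusted p of 0.0555 to 0.0578, nor with the floor (0.0564) or with 16 added to the intensities (0.0603). Tpp1, a lysosomal peptidase whose loss causes neuronal ceroid lipofuscinosis, rose from 116 ± 8.003 to 183 ± 12.3. Scarb2 (0.34), the receptor that sorts glucocerebrosidase, and Ostm1 (0.32), a chloride transporter subunit, were higher. Ctss, a cathepsin of immune cells, was above background only in control cells, at 15.9 to 25.9, and was at least 1.07-fold lower. Sort1, the endocytic receptor of PGRN, read 1804 to 2246 against 1296 to 1856. The lines overlapped and the adjusted p of 0.0493 was just under the threshold. Psap and Ostm1 lie on chromosome 10.

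In lipid and amino acid metabolism few genes of each list passed, where 3.78% of all genes were higher and 3.27% lower. Bscl2, the lipid droplet protein seipin whose mutation causes motor neuropathy, read 3131, 3277, 3355 and 3260 in NSC-34/hPGRN cells against 1882, 1858, 1958 and 1970 in control cells. These lines were well apart (log2 fold change 0.74, SE 0.08, limma adjusted p = 3.92e-06), and NSC-34/shPGRN cells were lower still at 1005 ± 69.5. Sgms1, a sphingomyelin synthase, rose from 101 ± 26.9 to 183 ± 13.8 and was the only 1 of 28 ceramide and sphingolipid genes to pass. Of 14 sterol biosynthesis genes Mvd (0.41) and Tm7sf2 (0.35) were higher, and 0 to 4 were higher with 1 array left out. The median log2 fold change of the sterol list was 0.22, against -0.0021 over all genes. None of 17 genes of the SREBP pathway and sterol transport and none of 29 fatty acid genes passed. Of 41 ATF4 targets and amino acid supply genes Cebpb (0.46), Aldh1l2 (0.45), Slc7a11 (0.42) and Aars (0.35) were higher and Chac1 (-0.33) lower. The ATF4 list held 1 higher and 0 lower with the floor or with 16 added, and 2 higher and 0 lower with the offset at 16. Of 44 oxidative stress and glutathione genes 3 were lower, the peroxidases Gpx8 (-0.75) and Gpx1 (-0.36) and the transferase Mgst2 (-0.53), and 1 was higher, Slc7a11.

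Signaling pathways showed scattered differences, with counts read against 3.78% higher and 3.27% lower of all genes. None of 24 Notch genes passed. Of 28 receptor tyrosine kinase genes only Ret, the receptor of glial-derived neurotrophic factors, passed, at 5436 ± 289 against 7058 ± 954 (log2 fold change -0.36, SE 0.10, limma adjusted p = 0.0221). The paper describes RET expression as increased at high PGRN, and reports less RET RNA and protein in NSC-34/shPGRN cells. The decrease here is of RNA, in NSC-34/hPGRN against control cells. Among 33 genes of the TGF-beta and BMP families Smad3 (-0.56), Bmp7 (-0.50) and Fstl1 (-0.39) were lower and Acvr2b (0.46) and Chrd (0.37) higher. Dkk1, a secreted Wnt inhibitor, fell from 297 ± 19.9 to 171 ± 36.6, and Cd44, the hyaluronan receptor, from 62.8 ± 5.94 to 17.4 ± 9.16. The genes that the study examined by RT-PCR were chosen in part from these samples. Among the others are Grn, Actb and markers of differentiation and lysosomes. Of 28 tested, 4 were lower (Stmn2, Dkk1, Ddc and Ret) and 0 higher. By RT-PCR the paper often saw little difference between control and NSC-34/hPGRN cells. The count of lower RT-PCR genes was 0 with the floor, 1 with 16 added and 2 with the offset at 16. With 1 array left out it was 2 to 5. Of 31 genes linked to amyotrophic lateral sclerosis and frontotemporal dementia, Stmn2 and Pfn1 were lower and Tbk1 (0.37), an autophagy kinase on chromosome 10, was higher.

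The remaining lists held few changed genes each, read against 7.05% of all genes. In energy metabolism 3 complex I subunits, Ndufb7 (-0.39), Ndufa9 (-0.33) and Ndufs6 (-0.33), were lower and Ndufv2 (0.33), on chromosome 17, was higher among 66 nuclear respiratory chain genes. Of 33 glycolysis and hypoxia genes 3 were higher, with the glycolytic enzyme Pfkl (0.44) on chromosome 10 and the growth factor Vegfa (0.45) on chromosome 17. Without the genes of chromosomes 4, 10, 13 and 17 the glycolysis and hypoxia list held 0 higher of 27. With 1 array left out it held 1 to 2 higher. Of 58 histone-modifying enzymes 3 were higher, among them the X-linked demethylase Kdm6a (149 ± 7.10 in control cells, 276 ± 49.5 in NSC-34/hPGRN cells), and 2 lower, and of 55 splicing factors 2 were higher and 3 lower. Of 32 Wnt genes Tcf7l2 (0.68), the transcription factor partner of beta-catenin, and Lgr5 (0.39) were higher beside the lower Dkk1. Among 15 annexins and S100 proteins Anxa2 (0.74) was higher, and S100a6 (-0.43), S100a3 (-0.35) and S100a13 (-0.32), all on chromosome 3, were lower, of which none passed without hPGRN replicate 1 or control replicate 3. The guidance genes Neo1 (0.47), Efna5 (0.33) and Ntng2 (0.32), of 20 ephrins, netrins and slits, and Sema3f (0.50), of 20 semaphorins, plexins and neuropilins, were higher. Of 47 DNA repair genes Prkdc (0.62), a kinase of end joining, was higher. Apoptosis regulators split evenly, 2 higher and 2 lower of 33, with Bcl2 (-0.43) and Casp6 (-0.45) lower. The calcium channel subunit Cacna2d1 (0.51) was 1 of 2 higher of 28 calcium genes, Nfkbia (0.39), the inhibitor of NF-kappa-B, the only one of 22 immune receptor genes, and Atf6b (0.30) the only one of 27 genes of the unfolded protein response. Counts were 3 higher of 17 protease inhibitors, 2 higher and 1 lower each of 13 retinoid genes, 15 neurotrophic factors and 22 sideroflexin and one-carbon genes, 3 higher and 1 lower of 10 cancer testis antigens, 2 higher of 20 lipid droplet genes, 0 higher and 3 lower of 39 adhesion molecules, and 1 in each direction of 35 autophagy genes.

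The changed genes were unevenly spread over the chromosomes. Chromosomes 10 and 17 held 10.1% of the genes tested and 36.4% of the higher genes, 153 of 420, with 13 lower genes. On chromosome 17, 84 of 561 genes were higher and 5 lower, 15% and 0.891% against the 3.78% and 3.27% of all genes, and the median log2 fold change was 0.12. On chromosome 10, 69 of 560 were higher and 8 lower, with a median of 0.10. Genes with a mean intensity of at least 500 over all arrays were also read. Of these, 88.2% of 169 on chromosome 17 and 86.2% of 188 on chromosome 10 had a log2 fold change above 0, with medians of 0.22 and 0.23. Chromosome 13 went the other way, with 53 lower and 19 higher of 366 genes. On chromosome 12, 24 of 350 genes were lower and 5 higher. On chromosome 16, for comparison, 5 of 350 genes were higher and 5 lower.

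**Figure D4:**
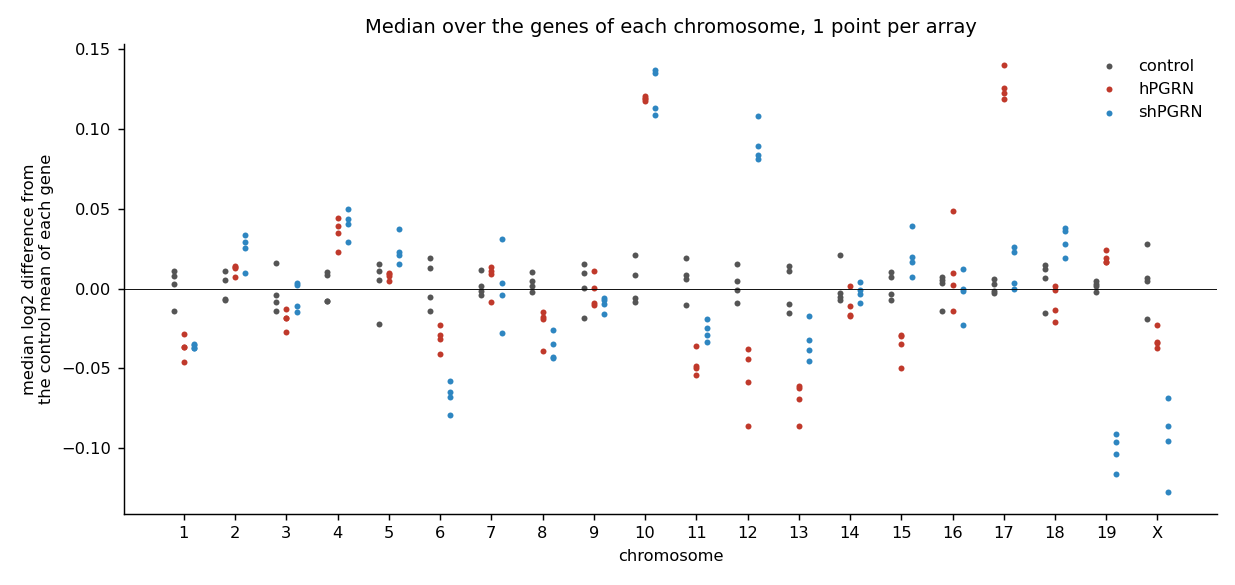
Median over the genes of each chromosome (horizontal axis) of the log2 difference from the control mean of each gene (vertical axis), with 1 point for each of 12 arrays. On chromosome 17 the 4 hPGRN arrays lie above all control and shPGRN arrays, and on chromosome 10 the hPGRN and shPGRN arrays both lie above the control arrays.

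Along the chromosomes, genes were put in RefSeq order and read in windows of 20 tested neighbours. On chromosome 17 all 25 windows from H2-Q8 to Spdya had a median above 0, with 84 of 500 genes higher and 4 lower, whereas the last 61 genes, from Wdr43 on, held 0 higher and 1 lower and had a median of -0.01. On chromosome 10, 27 of 28 windows had a median above 0. On chromosome 4 the 226 genes from Tinagl1 to the end held 37 higher and 1 lower, with a median above 0 in all 12 windows, and the 460 genes before them 9 higher and 14 lower. The ends of these runs were chosen after the values were seen, so they describe the data and were not tested.

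Chromosome 13 alternated. Its first 140 genes, from Gdi2 to Tpmt, held 39 lower and 3 higher genes with a median of -0.16, the next 60 genes, from Kdm1b to Smad5, held 11 higher and 1 lower with a median of 0.14, and these include Gadd45g and Sfxn1. A single window from Med10 to Rhobtb3 held 7 lower of 20 genes with a median of -0.28. On chromosome 18 the last 32 genes, from Ier3ip1 on, held 7 lower and 0 higher, Tshz1 and Zadh2 among them, and the 240 genes before held 3 higher and 4 lower.

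**Figure D5:**
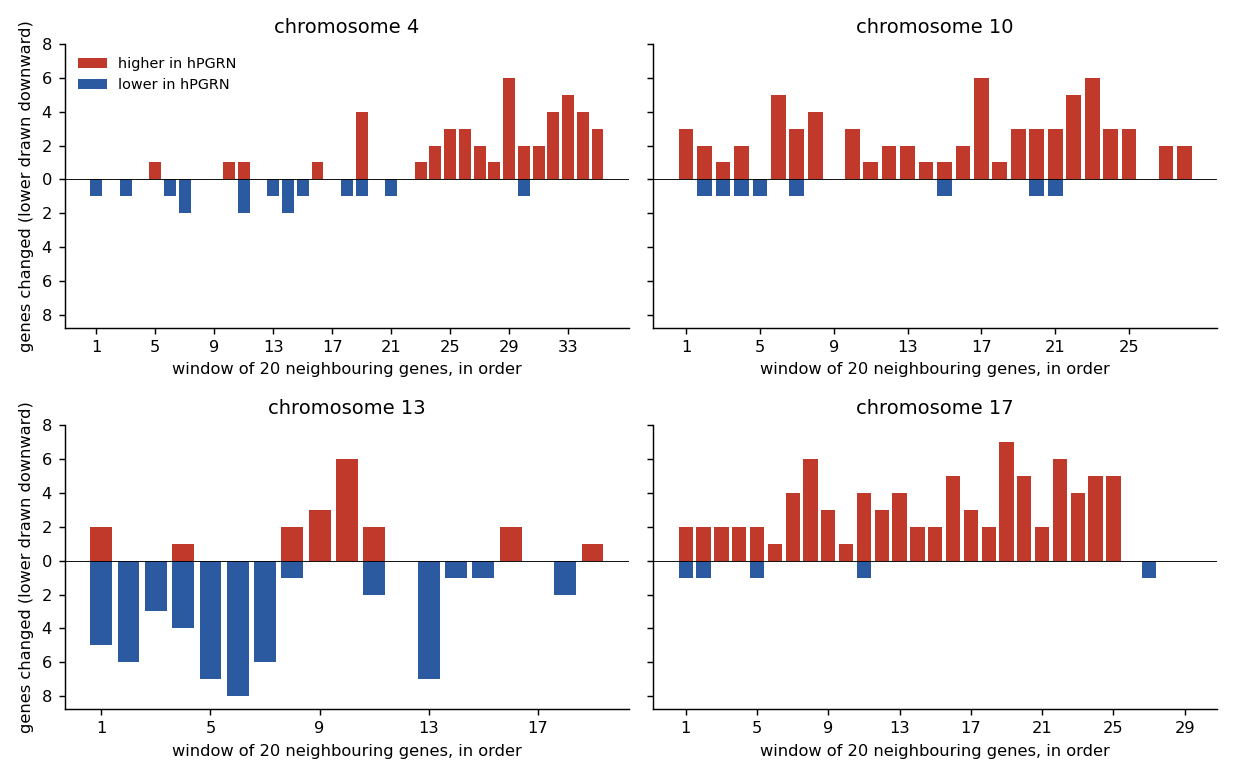
Number of genes higher (red, upward) and lower (blue, downward) in NSC-34/hPGRN cells in consecutive windows of 20 tested genes along chromosomes 4, 10, 13 and 17, the last window of a chromosome holding fewer. Chromosome 17 has 84 higher genes in its first 25 windows and 0 after them, and on chromosome 4 the last 12 windows hold 37 of the higher genes.

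The runs on chromosomes 17, 10 and 4 were also read on each array. For the run on chromosome 17 from H2-Q8 to Spdya, the median difference from the control mean was 0.13, 0.15, 0.14 and 0.15 on the log2 scale on the hPGRN arrays, -0.0050 to 0.0086 on the control arrays and 0.0018 to 0.03 on the shPGRN arrays. For chromosome 10 it was 0.12 on each hPGRN array, -0.0082 to 0.02 on the control arrays and 0.11 to 0.14 on the shPGRN arrays. For the end of chromosome 4 it was 0.12 to 0.15 on the hPGRN arrays and 0.10 to 0.13 on the shPGRN arrays. For the first 140 genes of chromosome 13 it was -0.21 to -0.15 on the hPGRN arrays and -0.09 to -0.08 on the shPGRN arrays. From Kdm1b to Smad5 it was 0.09 to 0.16 and 0.05 to 0.08, and from Med10 to Rhobtb3 -0.37 to -0.23 and -0.28 to -0.18. For the end of chromosome 18 it was -0.20 to -0.13 and -0.13 to 0.05. Values of both modified lines are set against the same control arrays. Without the genes of chromosomes 4, 10, 13 and 17, 412 of 8934 genes changed, 167 higher and 245 lower. The arrays measure RNA, DNA copy number was not measured, and the part of chromosome position in any single gene's change was not tested.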

How the data were processed

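RNA of 4 flasks each of NSC-34/hPGRN, control and NSC-34/shPGRN cells was hybridized to Illumina MouseWG-6 arrays. The authors deposited linear, background-subtracted intensity values of 45281 probes with array medians of 7.86 to 7.92. Normalization by lumi is named in the methods, without the steps behind the deposited table. The names of 24 value columns in a non-normalized table match no sample, and they were not used.

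In limma 3.58.1 (R 4.3.3) the intensities were corrected by normexp with an offset of 50, quantile normalized and put on the log2 scale. The background limit of each array (p under 0.05) was set from its most frequent value and the spread of lower values, and 20362 probes above it on at least 4 of 12 arrays were kept. The platform annotation gives 1 symbol to 34885 probes, several to 18 and none to 10378, and 34807 matched RefSeq by Entrez ID. Each gene is represented by its brightest kept probe over the 12 arrays. Of 351 changed genes with over 1 kept probe, another probe passed in the same direction for 124 and in the opposite direction for 1, Dpp8. A mean per line was fitted to all 12 arrays, hPGRN minus control was tested with moderated variances, and p-values were Benjamini-Hochberg adjusted over the genes tested. The fit was tested on simulated data.

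Named genes are Grn, the 15 largest changes in each direction among changed genes whose arrays do not overlap, up to 4 changed members of each of 56 gene lists and the RT-PCR genes; further members of a list that changed, and other genes, were chosen after their values were seen. The members and lists were chosen with earlier results of these data known. Alternatives were fitted as well, among them leaving out each array and the replicate number as a block. Precision is limited by the number of arrays.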

Additional observations from a re-analysis of the deposited data

Results flagged for a closer look

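In 12 of 322 groups of 4 arrays examined, which is 3.73% of them, 1 array lay far from the other 3 of its line by Dixon's criterion, and chance alone marks about 1 in 20 groups. In NSC-34/hPGRN cells Sptlc1 read 435 on replicate 1 against 591 to 604 on the others, Zadh2 read 348 on replicate 1 against 429 to 446, Elavl4 read 112 on replicate 2 against 139 to 141, and Anxa2 read 1520 on replicate 1 against 1303 to 1320. In control cells Pfn1 read 2745 on replicate 4 against 1978 to 2029, ND5 read 536 on replicate 2 against 637 to 656, and Ctss read 25.9 on replicate 3 against 15.9 to 17.6. Control replicate 2 was also the highest of its line for Sfxn1, at 60.1 against 41.9 to 44.2, and for Gadd45g, at 23.8 against 13.9 to 15.5. Vmn1r123 read 17.6 on control replicate 4 and at most 2.04 on the others. For chromosome 13 the median log2 difference from the control mean was -0.0245 on control replicate 4 for the genes from Kdm1b to Smad5, below 0.0063 to 0.0092 on the others, and -0.37 on replicate 2 of NSC-34/hPGRN cells for the genes from Med10 to Rhobtb3, below -0.25 to -0.23 on the others.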

How the results depend on the processing

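Over the same chromosomes and all arrays, the number of changed genes (783) ranged from 499 with 16 added in place of the background correction and its offset of 50 to 991 with array weights. With only the 8 hPGRN and control arrays in every step, 783 of 10131 genes tested changed, 738 of them the same genes. Leaving out 1 array gave 513 changed genes (without control replicate 3) to 706, and 514 without hPGRN replicate 4. With the replicate number as a block 683 genes changed, 671 of them the same genes, and the arrays share only a number, since deviations of same-numbered arrays correlated at -0.16 to 0.02. Without the genes of chromosomes 4, 10, 13 and 17, a choice made after seeing the data, 412 genes changed, 70 at least 1.5-fold and 3 upward in the extracellular matrix list. The 115 genes at 1.5-fold became 230 with a floor at the lowest positive value, 233 with 16 added and 175 with an offset of 16, and 109 to 131 with 1 array left out. Higher genes on chromosome 17 numbered 47, 44 and 54 under these 3 settings and 51 to 70 with 1 array left out, where leaving out hPGRN replicate 2, 3 or 4 or control replicate 3 gave the lowest counts. On chromosome 10 they numbered 44 with 16 added and 41 to 65 with 1 array left out (lowest without hPGRN replicate 4), and lower genes on chromosome 13 were 35 (without control replicate 3) to 49. Lower interferon genes numbered 6 with the floor and 7 to 9 with 1 array left out, and higher matrix genes 6 to 10. The Grn difference stayed between 0.12 and 0.27 with 1 array left out, the difference in probes above background between 14.4 and 75.75. Of 150 named genes 79 kept their call under each of the up to 21 settings that tested them. Only genes without a call changed sign: Auh (-0.0051, mean of its probes), Sptlc1 (-0.0260 without control replicate 1, up to 0.141 without hPGRN replicate 1) and Stat2 (-0.0174 with array weights, and -0.0403 without control replicate 4 to 0.109 without control replicate 1). The causes were not tested. Leaving out a single array ended the call of Aars, Agpat4, Aldh1l2, Ank3, Asl, Atf6b, Bcl2, Chac1, Chrd, Col16a1, Col18a1, Ddc, Dpysl3, Efna5, Errfi1, Fstl1, Gata3, Gbp3, Gins2, Hspg2, Igtp, Insm1, Jun, Klf6, Mcm6, Mvd, Napb, Ndufa9, Ndufs6, Ndufv2, Neurog2, Nfkbia, Ntng2, Oasl2, Orc6, Ostm1, Phlda3, Psap, Psmb8, Ret, S100a13, S100a3, S100a6, Scarb2, Slc7a11, Sort1, Sox11, Syn3, Tapbp, Tbx3, Timp3, Tm7sf2, Tubb2b, Vamp1, Vamp3 and Vegfa.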
